A study of Mus musculus with 14 samples.

Results

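The cytoplasmic ribosomal protein genes encode the protein parts of the ribosome that translates nuclear messages. They were chosen by name: symbols that start with Rpl or Rps, continue with a number and carry at most 1 further letter (a, x or l), together with Rplp0, Rplp1, Rplp2 and Rpsa, and without pseudogenes or Rps6 kinases. The array held probes for 78 of the 81 such genes in the gene table, out of 19096 genes with a symbol on the array. Of the 78, 48 belong to the large subunit and 30 to the small subunit, and 77 passed the filter on dim probes. Rpl39l, a paralogue best known from testis, did not pass it. The colons came from female C57BL/6 mice of 4–6 months on a chow diet. Flox mice carry GR fl/fl, which are loxP-flanked alleles of Nr3c1, the gene of the glucocorticoid receptor (GR), and GR iKO mice carry the same alleles with Villin-cre, which is active in the intestinal epithelium, so other colon cells keep the receptor. Each genotype drank regular water or 2.5% dextran sulfate sodium (DSS), an agent that injures the colonic epithelium, for 7 days, which gave 4 Flox and 4 GR iKO samples on water and 3 Flox and 3 GR iKO samples on DSS. RNA was taken from colon tissue as a whole, and the labels name no pooling of animals.

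A ribosome has a small subunit, which reads the message, and a large subunit, which joins the amino acids. Each mature particle carries about a single copy of nearly every ribosomal protein, except for the acidic proteins P1 and P2, which form the stalk of the large subunit together with P0 and recruit translation factors. The messages of ribosomal proteins are among the most abundant of a cell and share a run of pyrimidines at their start, the terminal oligopyrimidine (TOP) motif, through which mTORC1 signalling and LARP1 control their translation. In the colon, demand for ribosomes is high in the dividing cells of the crypts and in secretory cells.

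Because the genes share this kind of start, pyrimidine runs near the annotated start are shown for members that changed in different directions on DSS. RefSeq promoter windows of assembly GRCm38.p6, which cover 250 bases before and 50 bases after the annotated start, were found for 59 of the 78 genes. The windows were searched on the sense strand, within 50 bases on either side of the start, for an unbroken run of at least 8 C or T letters. Such a run was present for 51 of the 59 genes, or 86.4%, whereas it was present for 39.3% of all genes in the table. In the 30-base stretches below, written 5′ to 3′ on the strand of the gene, capitals mark the run. The run lies at 27 from the annotated start for Rpl4, at −45 for Rps19 and at 24 for Rpl37a. For the other genes shown it lies between −5 and 9. A marked run therefore need not be the TOP motif. The upper 6 genes were lower on DSS and the lower 4 were higher on DSS in Flox colon.
Rpl4 (chr9:64173405-64173434, plus strand): gagcgtggCCTTCTCCTCTCCCCgtcatgg
Rps26 (chr10:128626485-128626514, minus strand): aagccgccggaTCCTCTTTCgagtcttggc
Rpl18 (chr7:45718062-45718091, plus strand): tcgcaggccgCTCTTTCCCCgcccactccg
Rpl28 (chr7:4792952-4792981, plus strand): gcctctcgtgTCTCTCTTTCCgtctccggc
Rps19 (chr7:24884622-24884651, plus strand): accccgtcgTTCCCTTTCCCCTggctggca
Rps6 (chr4:86857349-86857378, minus strand): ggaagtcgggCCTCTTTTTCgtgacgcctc
Rplp2 (chr7:141447636-141447665, plus strand): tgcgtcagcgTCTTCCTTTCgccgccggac
Rpl38 (chr11:114668568-114668597, plus strand): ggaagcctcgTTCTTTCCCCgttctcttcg
Rpl37a (chr1:72711274-72711303, plus strand): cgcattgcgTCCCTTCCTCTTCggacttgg
Rps12 (chr10:23787182-23787211, minus strand): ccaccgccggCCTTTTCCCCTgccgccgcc
The stretches were taken from windows that hold such a run, so its presence in each follows from the choice. Among the 59 genes 8 had no such run, and one of them was Rplp0, which was also higher on DSS in Flox. The core CCGGAAG of the binding motif of ETS factors, searched on both strands of the whole window, was present in 26 of 71 windows of these genes, or 36.6%, and in 8.86% of all 32851 windows. It can overlap the pyrimidine run, since its reverse complement is rich in pyrimidines. Such matches describe letters in a window and do not show binding or a start site in colon.

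The deposited arrays gave a 75th percentile of the processed signal of 262 to 1003 intensity units, the lowest on Flox DSS replicate 4, and 62.6% to 71.3% of probes were well above background. Signals are given as log2 of the processed intensity minus the 75th percentile of the array, so that a value of 0 is the 75th percentile, and a probe was called at a Benjamini-Hochberg adjusted p under 0.05 in limma over 29523 tested probes. As a check of the labels, Nr3c1 on water averaged 1.19 ± 0.14 (SD, n = 4) with the receptor and 0.39 ± 0.16 (SD, n = 4) after its deletion (exact two-sided permutation p = 0.0286). Under DSS the Flox arrays averaged 1.27 ± 0.20 (SD, n = 3) and the GR iKO arrays 0.43 ± 0.05 (SD, n = 3), with no overlap (exact two-sided permutation p = 0.1, the smallest that 3 against 3 samples allow). Where this probe lies relative to the deleted part of the gene was not determined here. The epithelial markers Krt8, Krt18, Krt19, Cldn7, Vil1, Cdh1, Epcam and Elf3 were well above background on all 14 arrays, as were 76 of the 78 ribosomal protein genes. The exceptions were Rpl3l, a paralogue known from skeletal and heart muscle, on 4 arrays, and Rpl39l on 2. In whole tissue, fewer cells of a type and less RNA per cell cannot be told apart.

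On DSS, a part of the ribosomal protein genes fell and few or none rose. In Flox colon 26 of 77 genes fell and 7 rose, against 28.2% of all tested probes that fell and 24.4% that rose. In GR iKO colon 25 of 77 fell and none rose, against 22.5% and 22% of all probes. The shares that fell, 33.8% and 32.5%, were thus not far from those of all probes, and the shares that rose, 9.09% and 0%, were below them. The median log2 change was −0.22 in Flox, where the median of all probes was −0.09, and −0.33 in GR iKO, where that of all probes was −0.02. A total of 56 of the 77 estimates were negative in Flox and 71 in GR iKO. The DSS and water samples did not overlap, in either direction, for 30 of the 77 genes in Flox and 29 in GR iKO. Among all probes, 57.4% in Flox and 46.3% in GR iKO had no such overlap, so separated groups do not set these genes apart. The split between rises and falls in Flox moved with the scaling of the arrays. It was 2 higher and 33 lower with quantile normalization, 12 and 25 with cyclic loess, and 0 and 77 with scaling to the spike-in transcripts, where the median of all probes itself moved to −2.43.

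**Figure D1:**
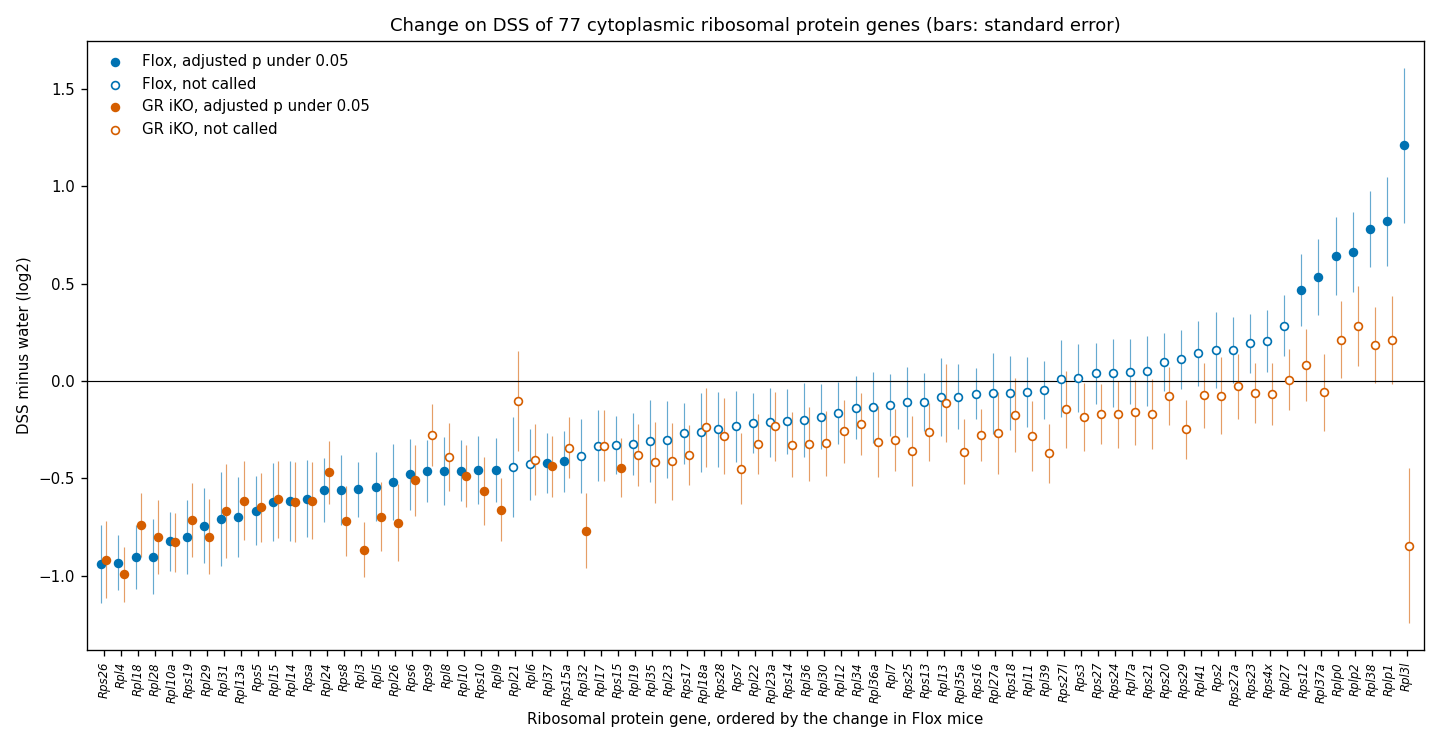
Change on DSS of the 77 tested ribosomal protein genes in Flox (blue) and GR iKO (orange) colon. The vertical axis is DSS minus water in log2 units, bars are standard errors from limma, and filled points passed an adjusted p under 0.05; the genes at the left fell in both genotypes, and the rises at the right were called in Flox alone, with the interaction called for none.

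A total of 23 genes were called lower in both genotypes, which is 88.5% of the 26 in Flox and 92% of the 25 in GR iKO. Over all tested probes, 5214 were called lower in both, which is 62.5% of those lower in Flox and 78.4% of those lower in GR iKO. Whether the shares of these genes differ from those of all probes was not tested. The comparisons have no arrays in common, but the variance of each probe was estimated over all 14. Rpl8, Rps15a and Rps9 were called in Flox but not in GR iKO, and Rpl32 and Rps15 in GR iKO but not in Flox, all of them named after their values were seen. Neither set was shown to differ between genotypes, because the interaction was called for no ribosomal protein gene. The changes of the 77 genes in Flox and GR iKO correlated at r = 0.76 across genes, which are not independent replicates.

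Among large subunit proteins, Rpl4 had the lowest adjusted p in both genotypes. Rpl4, a protein that lines the tunnel through which the new chain leaves, was at 4.21, 4.42, 4.37 and 4.33 on the Flox water arrays and at 3.18, 3.42 and 3.60 on the Flox DSS arrays. In GR iKO it was at 4.19, 4.36, 4.30 and 4.53 on water and at 3.61, 3.12 and 3.34 on DSS. Every DSS array was below every water array in both genotypes. Groups were also separated, in either direction, for 57.4% of all probes in Flox and 46.3% in GR iKO. The change of Rpl4 was −0.93 ± 0.14 (SE, adjusted p = 0.000183) in Flox and −0.99 ± 0.14 (SE, adjusted p = 0.000178) in GR iKO. These are 52.4% and 50.3% of the level on water.

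Rpl18 and Rpl28, further proteins of the large subunit, changed by similar amounts in Flox. Rpl18 was between 6.06 and 6.27 on Flox water and at 5.06, 5.09 and 5.62 on Flox DSS, a change of −0.90 ± 0.16 (SE, adjusted p = 0.000597). Rpl28 was between 6.77 and 6.99 on Flox water and at 5.88, 5.90 and 6.13 on DSS, a change of −0.90 ± 0.19 (SE, adjusted p = 0.00184). Neither gene had overlapping groups. In GR iKO the changes were −0.74 for Rpl18 and −0.80 for Rpl28, both called, and GR iKO DSS replicate 3 was the lowest array for both, at 5.01 and 5.60. Rpl10a, a protein of the L1 stalk near the exit site of the tRNA, fell by 0.82 in Flox and by 0.83 in GR iKO. Rpl3, which reaches into the catalytic centre of the large subunit, fell by 0.56 in Flox and by 0.87 in GR iKO, where its adjusted p was 0.000434. All of these kept their calls and direction in each of the 28 alternative settings tried. Each has a single tested probe, so the settings that use other probes of a gene could not change their estimates.

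Of the 30 small subunit genes, 9 fell in Flox and 8 in GR iKO. Rps26, a protein at the exit of the message channel, had the largest change of the subunit in both. It was at 5.72, 5.71, 5.91 and 5.64 on Flox water and at 4.53, 4.74 and 5.15 on Flox DSS, and at 5.71, 5.88, 5.88 and 5.93 on GR iKO water and 5.35, 4.42 and 5.03 on GR iKO DSS. No groups overlapped, although GR iKO DSS replicate 1 stayed closest to the water arrays. The change was −0.94 ± 0.20 (SE, adjusted p = 0.00183) in Flox and −0.92 ± 0.20 (SE, adjusted p = 0.00277) in GR iKO. Rps19, the gene most often mutated in Diamond-Blackfan anaemia, fell by 0.80 in Flox and by 0.71 in GR iKO, with calls in all 28 alternatives. It too has a single tested probe, so the alternatives on other probes of a gene could not change its estimate.

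Rps6, the small subunit protein that S6 kinases phosphorylate downstream of mTORC1, moved less. It was between 5.72 and 5.90 on Flox water and at 5.16, 5.14 and 5.58 on Flox DSS, a change of −0.48 (adjusted p = 0.0424), and −0.51 in GR iKO (adjusted p = 0.0381). The groups did not overlap in either genotype. These calls were close to the threshold and were kept in 16 of 28 alternatives in Flox and 18 of 28 in GR iKO. In Flox they were lost on leaving out any 1 of the 8 water samples or Flox DSS replicate 1 or 2 (highest adjusted p = 0.138). In GR iKO they were lost on leaving out any 1 of the GR iKO water samples, Flox water replicate 1 or GR iKO DSS replicate 3 or 4 (highest adjusted p = 0.158). Rpsa, which also serves as a laminin receptor at the cell surface, fell by 0.60 in Flox (adjusted p = 0.0220) and by 0.61 in GR iKO (adjusted p = 0.0242). Its second, much dimmer probe, with a mean signal of −1.29 against 4.75, gave 0.45 and 0.13, not called, so the probes of Rpsa differ in sign. The calls of Rpsa were lost without Flox DSS replicate 1 or 2 in Flox and without GR iKO water replicate 3 or 4 or GR iKO DSS replicate 3 in GR iKO, with highest adjusted p of 0.0902 and 0.0824.

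**Figure D2:**
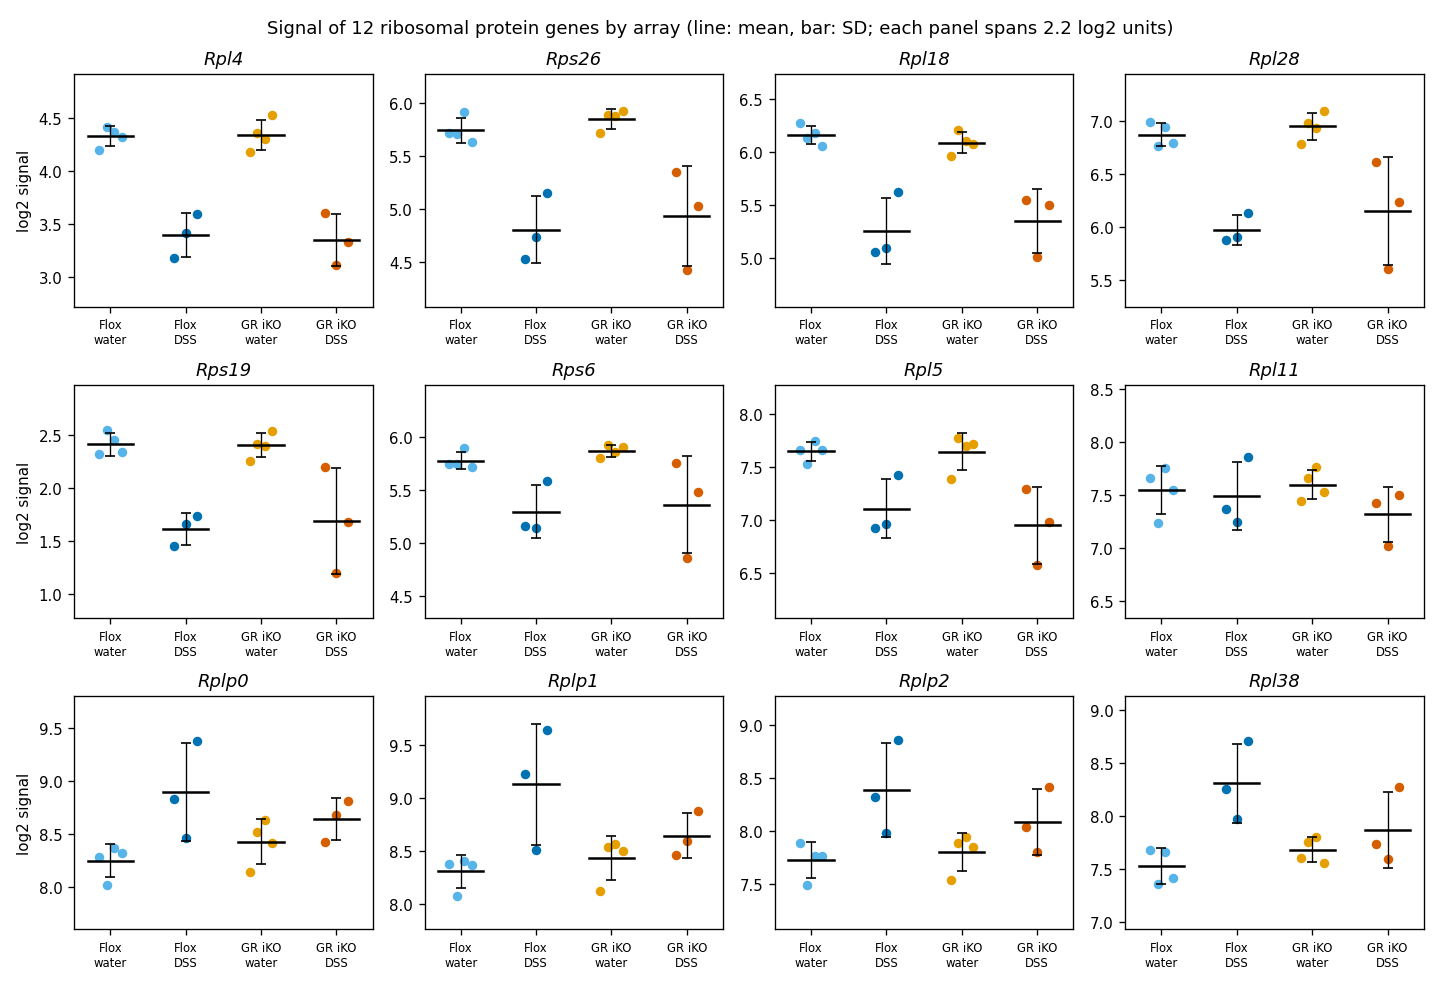
Log2 signal of 12 ribosomal protein genes on each array; points are samples, horizontal lines group means and bars SD (n = 4 on water, n = 3 on DSS), and the vertical range is equal in all panels. The DSS points of Rpl4, Rps26, Rpl18, Rpl28, Rps19, Rps6 and Rpl5 lie below the water points in both genotypes, while Rplp0, Rplp1, Rplp2 and Rpl38 lie above them in Flox and overlap them in GR iKO.

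The genes of the stalk proteins moved the other way in Flox colon. Their probes were among the brightest, with mean signals of 7.965 to 8.59. Of the 24 tested probes of any gene with a mean signal of 8 or more, 45.8% were called higher in Flox. Rplp1, which encodes the acidic stalk protein P1, was at 8.38, 8.08, 8.41 and 8.37 on Flox water and at 9.23, 8.51 and 9.64 on Flox DSS. All Flox DSS arrays were above all Flox water arrays, and the change was 0.82 ± 0.23 (SE, adjusted p = 0.00915), or 1.77-fold. In GR iKO it was at 8.12, 8.54, 8.57 and 8.50 on water and 8.46, 8.59 and 8.88 on DSS, with overlapping groups and a change of 0.21 (adjusted p = 0.473). Rplp2, which encodes the partner protein P2, rose by 0.66 (adjusted p = 0.0171) in Flox, and its change was 0.28 (adjusted p = 0.291) in GR iKO. Rplp0, which encodes the stalk base P0, rose by 0.64 (adjusted p = 0.0168) in Flox, and its change was 0.21 (adjusted p = 0.413) in GR iKO. Flox DSS replicate 4, the dimmest array, was the highest for each stalk gene, at 9.64 for Rplp1, 8.86 for Rplp2 and 9.38 for Rplp0. Without it the changes were 0.56, 0.43 and 0.40, and Rplp1 alone kept its call.

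The rise of the stalk genes depended on the processing. Before scaling, Rplp1 was at 239900 to 302300 intensity units on Flox water and 209500 to 258500 on Flox DSS. Rplp0 was at 234100 to 283100 and 174800 to 238000. The rise was thus relative to the 75th percentile, which was 707 to 1003 on Flox water and 262 to 675 on Flox DSS. With quantile normalization the rise was 0.12 for Rplp1 (adjusted p = 0.421), 0.21 for Rplp2 (adjusted p = 0.201) and 0.05 for Rplp0 (adjusted p = 0.735). With cyclic loess it was 0.91, 0.76 and 0.73, all called. Rplp0 has a second, dimmer probe, which gave −0.42 (adjusted p = 0.0808) in Flox and −0.51 (adjusted p = 0.0448) in GR iKO. The direction of Rplp0 on DSS was therefore not settled by these arrays. Spike-in scaling turned all 3 stalk genes to falls of −1.52, −1.68 and −1.70, which remained above the median of all probes under that scaling.

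Rpl38, a large subunit protein known for its part in translating Hox messages, was also called higher in Flox. It was at 7.68, 7.35, 7.66 and 7.41 on Flox water and at 8.25, 7.96 and 8.70 on Flox DSS, and the change was 0.78 ± 0.19 (SE, adjusted p = 0.00488). The groups did not overlap, and the rise stayed called with quantile normalization at 0.40 (adjusted p = 0.0324) and on leaving out any single sample, while spike-in scaling gave −1.56. Before scaling, Rpl38 was at 124300 to 186000 intensity units on Flox water and 109300 to 168500 on Flox DSS, which overlap. In GR iKO its change was 0.18 (adjusted p = 0.466). Rpl37a at 0.53 (adjusted p = 0.0372) and Rps12 at 0.47 (adjusted p = 0.0483), named after their values were seen, completed the rises in Flox, and in both the DSS and water samples overlapped.

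The remaining rise, of Rpl3l, was measured at the edge of background. It was well above background on 2 of 3 Flox DSS arrays, on 0 of 4 Flox water arrays, on 2 of 4 GR iKO water arrays and on 0 of 3 GR iKO DSS arrays. The probe was at −4.68, −5.01 and −4.97 on Flox DSS and between −6.50 and −5.41 on GR iKO water. The measured means were −4.88 on Flox DSS and −6.09 on Flox water, with an adjusted p of 0.0218. With quantile normalization the change was 0.98, and with spike-in scaling it was −1.135. The call was lost on leaving out Flox water replicate 1 or 2 or Flox DSS replicate 1, with a highest adjusted p of 0.0733. In the main scaling, the Flox DSS mean was 2.09-fold the lowest signal well above background on the Flox water arrays. That value carries no sampling error and is not a smallest size of the change. Of 5 tested skeletal muscle markers, 2 were called higher in Flox and 1 lower in GR iKO. The mean of the 6 such markers on the array was between −3.77 and −3.30 on Flox DSS, between −4.21 and −3.69 on Flox water and between −5.09 and −3.96 on GR iKO DSS, with Myh4, a myosin of fast fibres, not well above background on any array. The part of muscle in the Rpl3l signal was not tested.

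Other members with a role of their own differed in how they moved. Rpl5 and Rpl11 join the 5S ribosomal RNA in a particle that also binds Mdm2. Rpl5 fell by 0.54 in Flox (adjusted p = 0.0211) and by 0.70 in GR iKO (adjusted p = 0.00684), while its second, dimmer probe gave 0.02 in Flox and −0.28 in GR iKO. The Flox call of Rpl5 was lost without Flox water replicate 3 or Flox DSS replicate 1 or 2. Rpl11 was at −0.06 (adjusted p = 0.814) in Flox and at −0.28 (adjusted p = 0.223) in GR iKO, with overlapping groups. Rps27a, made as a fusion of ubiquitin and a small subunit protein, changed by 0.16 in Flox and by −0.03 in GR iKO, neither of which was called. Rps27l, a paralogue induced by p53, was at 0.01 and −0.15, also not called. Rpl39l was well above background on 2 of 3 GR iKO DSS arrays and on no water array of either genotype, and it was not tested.

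The ribosomal protein genes moved together from sample to sample on water and on DSS, with a wider spread in the DSS groups. The SD of the median gene was 0.12 in both water groups, where that of the median probe was 0.18 in Flox mice and 0.17 in GR iKO mice. Under DSS it was 0.27 in Flox and 0.36 in GR iKO, where that of the median probe was 0.26 and 0.34. On water, 76 of 77 genes were above their group mean on Flox replicate 3 and 74 of 77 below it on GR iKO replicate 1, whereas GR iKO replicate 4 had 36 above and 41 below. Of all probes, 54.9%, 51.0% and 52.6% were above their group mean on these 3 arrays. Relative to the mean of the Flox water arrays, the median of the genes was −0.38 and −0.42 on Flox DSS replicates 1 and 2 but 0.10 on replicate 4. In GR iKO it was −0.06 and −0.09 on DSS replicates 1 and 4 and −0.68 on replicate 3. By this median a single array was farthest from the others in each DSS group. Of the 77 genes, 74 were above their group mean on Flox DSS replicate 4 and 74 below it on GR iKO DSS replicate 3, where 53.6% and 52.9% of all probes were above. The median deviation on these arrays was 0.30 and −0.39, against 0.12 on Flox water replicate 3 and −0.14 on GR iKO water replicate 1. Without Flox DSS replicate 4 the Flox median was −0.36, with 3 genes higher and 30 lower. Without GR iKO DSS replicate 3 the GR iKO median was −0.14, with 15 genes lower. Most of these genes are brighter than the 75th percentile used for scaling. The log2 distance from that percentile to the 95th was 3.46, 3.40 and 3.54 on Flox DSS replicates 1, 2 and 4. It was 3.51, 3.39 and 3.58 on GR iKO DSS replicates 1, 3 and 4, and 3.47 to 3.56 on the water arrays. The part of this array-wide distance in the joint movement of the genes was not tested.

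**Figure D3:**
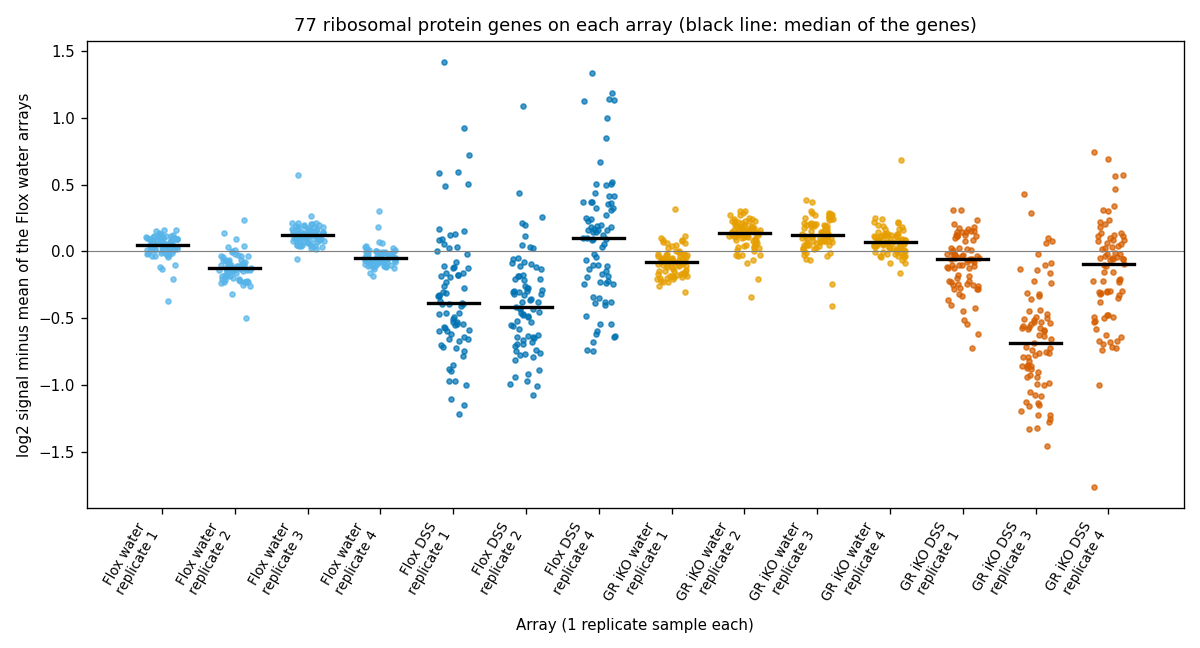
Signal of the 77 tested ribosomal protein genes on each of the 14 arrays, as log2 difference from the mean of the 4 Flox water arrays; each point is a gene and each black line the median of the genes. The 8 water arrays have medians between −0.12 and 0.14, and the DSS arrays range from −0.68 on GR iKO replicate 3 to 0.10 on Flox replicate 4.

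The arrays were on 4 slides, and within-slide differences rest on 1 array a side. Between DSS and water in Flox the median of the genes was −0.43 on slide 1, −0.29 on slide 2 and 0.15 on slide 4. In GR iKO it was −0.82 on slide 1, 0.01 on slide 3 and −0.15 on slide 4. The sign of the family median thus differed between slides, whereas Rpl4 was lower on DSS on every such slide, by −1.02, −1.01 and −0.73 in Flox and by −1.19, −0.58 and −1.19 in GR iKO. With slide as a block, 6 genes were higher and 17 lower in Flox, and 0 and 24 in GR iKO. By linear signal, the probes of the 77 genes held 7.84% to 8.78% of the summed signal of an array on Flox water and 7.72% to 7.92% on Flox DSS. They held 7.97% to 8.94% on GR iKO water and 6.24% to 8.31% on GR iKO DSS, the lowest on replicate 3.

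How far a gene changed went with how bright its probe was. A probe's signal depends on its own sequence as well as on the message, so brightness is used here as a property of the probe. Across 76 genes without Rpl3l, Spearman's rho between mean signal and change was 0.74 in Flox and 0.67 in GR iKO, given as a description over probes that share the same arrays. In Flox, the rises other than Rpl3l were all measured by probes with a mean signal of at least 7.81, and no fall was measured by a probe brighter than 7.39. The 8 genes with a mean signal of 8 or more had a median change of 0.33 in Flox with 4 called higher. The 24 probes of any gene in that range had a median of 0.25, and 45.8% of them were called higher. Of the 16 genes between 4 and 6, 11 were called lower with a median of −0.47, whereas 29.7% of the 1074 probes in that range were called lower, with a median of −0.14. Genes with a signal between 7 and 8 had the same median change in Flox, −0.09, as all probes in that range, of which these genes make up 28 of 88.

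The same was seen between probes of a single gene. For 28 genes more than 1 probe was tested, and the dimmest probe changed lower than the brightest for 21 of them in Flox and 22 in GR iKO. The median change was −0.55 for the dimmest and −0.23 for the brightest probes in Flox, and −0.55 and −0.32 in GR iKO. Rps18, Rpl7a and Rps3, named after their values were seen, show the size of this difference. In Flox the bright probe of Rps18 gave −0.06 and the dim probe −0.86. The bright probe of Rpl7a gave 0.05 and the dim probe −0.72, and those of Rps3 gave 0.01 and −0.70. For the small subunit gene Rps15a the probes were called in opposite directions in Flox, at −0.41 (adjusted p = 0.0430) and 0.67 (adjusted p = 0.0107). The probe that rose was very dim, with a mean signal of −4.81 against 6.11 for the other, so the probes are not equal evidence. With the dimmest probe of each gene in place of the brightest, 34 genes were lower and 7 higher in Flox, and 37 and 0 in GR iKO. The cause of the difference between probes was not tested.

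**Figure D4:**
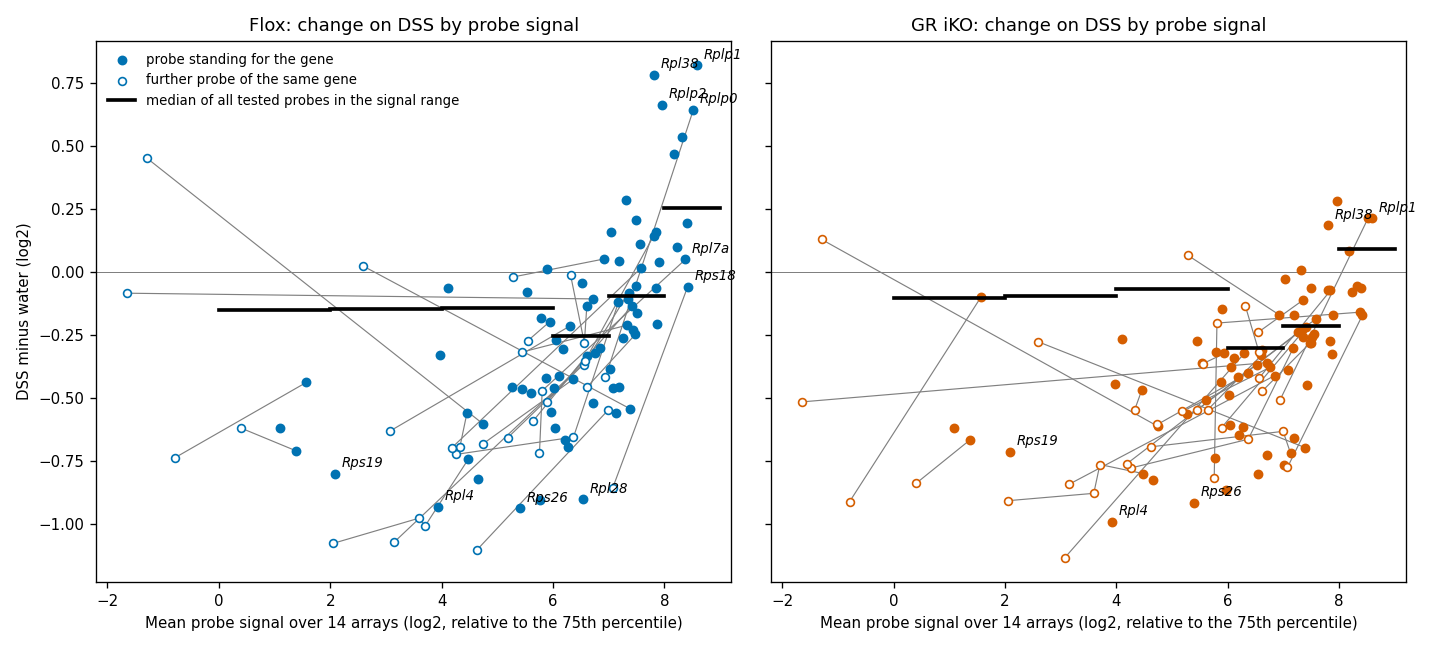
Change on DSS against mean probe signal for the probes of ribosomal protein genes with a signal above −2, in Flox (left) and GR iKO (right), both axes in log2 units. Filled points stand for the gene, open points are further probes joined to it by grey lines, and black bars are medians of all tested probes in a signal range. In Flox, Rpl4 lies at −0.93 and Rplp1 at 0.82, and most grey lines run upward to the right.

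With the arrays of each treatment fitted on their own, no ribosomal protein gene differed between the genotypes past the threshold. Nr3c1, the deleted gene, was not called in these fits either. Its limma change was −0.80 on water (adjusted p = 0.293) and −0.83 on DSS (adjusted p = 0.226), so a missing call does not show equal levels. On water, no ribosomal protein gene was called in either direction, against 0.00677% of all probes higher and 0.00339% lower in GR iKO. The median difference, GR iKO minus Flox, was 0.07, with 65 of 77 positive, and 1 gene had an unadjusted p under 0.05. That gene was Rpl35a at 0.21 (95% confidence interval 0.02 to 0.39). Rpl10a at 0.17 and Rpl30 at 0.20 were next. Within slides the median was 0.10, 0.25, −0.21 and 0.12 on slides 1 to 4, so the sign was not uniform, and the median was 0.002 with quantile normalization and −0.09 with spike-in scaling. The interval of Rpl4 ran from −0.21 to 0.23 and that of Rplp1 from −0.17 to 0.41.

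On DSS, GR iKO and Flox did not differ for any ribosomal protein gene past the threshold, nor for any probe of the array (0% higher and 0% lower by limma, with 4794 probes at an unadjusted p under 0.05). This depended on the arrays in the fit and on the scaling. With all 14 arrays in the limma fit, 6.44% of all probes were called higher and 6.78% lower, and of the ribosomal protein genes Rpl3l alone was called lower (adjusted p = 0.0142). With spike-in scaling 16.8% of all probes were called higher and 0.213% lower, and none of the ribosomal protein genes. In the main scaling and fit, the median was −0.08, with 53 of 77 negative, but 0.04 with quantile normalization and 1.15 with spike-in scaling, where that of all probes was 1.25. Within slides it was −0.33 on slide 1 and −0.22 on slide 4, and with slide as a block it was −0.28, with 75 of 77 negative and none called. Slide 1 held GR iKO DSS replicate 3 and slide 4 held Flox DSS replicate 4, the arrays farthest from the others of their groups. The median was 0.12 without GR iKO DSS replicate 3, with 56 of 77 positive, and 0.06 without Flox DSS replicate 4, with 53 positive. Without any other DSS sample it was between −0.18 and −0.13. With the replicate block it was 0.02, with 44 positive. Rpl3l, which no GR iKO DSS array measured well above background, was not called in the main fit (measured means −4.88 in Flox and −6.87 in GR iKO, adjusted p = 0.226). Its estimate ran from −2.40 to −0.58 over the alternatives. The Flox mean was 1.96-fold the lowest signal well above background on the GR iKO DSS arrays, a value without sampling error. Rpl38 was at −0.44 (adjusted p = 0.485) and Rpl37a at −0.42 (adjusted p = 0.489). The interval of Rplp1, −1.26 to 0.29, spans both a fall of more than 1 log2 unit and a small rise. The interaction asks whether the change on DSS differs between the genotypes, with negative values where GR iKO is lower. It was called for none of the 77 genes, against 0.0881% of all probes higher and 0.0237% lower, and 2 genes had an unadjusted p under 0.05. With spike-in scaling it was called higher for 59 genes and for 62.2% of all probes, whose median was 1.42. In the main scaling it was −0.60 (adjusted p = 0.259) for Rpl38 and −0.59 (adjusted p = 0.270) for Rpl37a. For Rpl3l the adjusted p was 0.0921, and no size is given because its Flox water and GR iKO DSS arrays were not well above background. The interaction was −0.61, −0.38 and −0.43 for Rplp1, Rplp2 and Rplp0, with adjusted p between 0.330 and 0.517. The smaller rise of the stalk genes in GR iKO was therefore not shown to differ from that in Flox.

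The mitochondrial ribosomal proteins, which build the separate ribosome of mitochondria, had called falls and no called rise. There were 31 of 78 in Flox and 30 of 78 in GR iKO, with medians of −0.36 and −0.38. For these genes and for the lists that follow, the shares of all tested probes called were 28.2% lower and 24.4% higher in Flox, and 22.5% lower and 22% higher in GR iKO. Their largest falls were Mrps35 at −1.32 and Mrpl9 at −1.09 in Flox, and Mrps35 at −1.24 and Mrps31 at −1.21 in GR iKO.

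Messages with a TOP start that do not encode ribosomal proteins also had called falls and no called rise, and some of them are also on the lists of factors that follow. Of 13 tested, 7 fell in each genotype, with medians of −0.41 in both. Eif3f, a subunit of the initiation factor that holds the small subunit, fell by 0.85 in Flox and 0.89 in GR iKO, and Eef2, which moves the ribosome along the message, fell by 0.69 and 0.83. Of 35 translation initiation factors, 8 fell and 2 rose in Flox, and 9 fell and 4 rose in GR iKO. Eif2b1, part of the exchange factor that recharges eIF2, fell by 1.43 in Flox and by 1.22 in GR iKO, while Eif4g3 rose by 0.60 in Flox and Eif1a by 0.62 in GR iKO. Of 13 elongation and release factors 2 fell and 2 rose in each genotype. Eef1a2, the form of the tRNA carrier that is known from muscle and neurons, rose by 2.50 in Flox and by 1.56 in GR iKO.

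Ribosome biogenesis factors act in the nucleolus and nucleus before the subunits are exported. Of 48, 14 fell and 5 rose in Flox, and 5 fell and 3 rose in GR iKO. Tsr1, which matures the small subunit, fell by 1.36 in Flox and by 1.02 in GR iKO, and Polr1b, a subunit of RNA polymerase I, fell by 1.14 and 0.97. Rrp12, which aids export of the subunits, rose by 0.71 in Flox, and Noc4l, a small subunit assembly factor, by 0.74 in GR iKO. Whether the counts differ between genotypes was not tested. Of the 20 genes of the mTORC1 axis and TOP regulation, 5 fell and 2 rose in Flox, and 7 fell and 3 rose in GR iKO. Eif4ebp1, which holds back cap-dependent translation when mTORC1 is low, rose by 1.11 in Flox and by 1.44 in GR iKO, whereas its relative Eif4ebp2 fell by 1.06 and 0.87. Ddit4, an inhibitor of mTORC1 that stress and glucocorticoids induce, rose by 0.87 in GR iKO, and Sesn1, a sestrin that restrains mTORC1, rose by 0.84 in Flox.

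**Figure D5:**
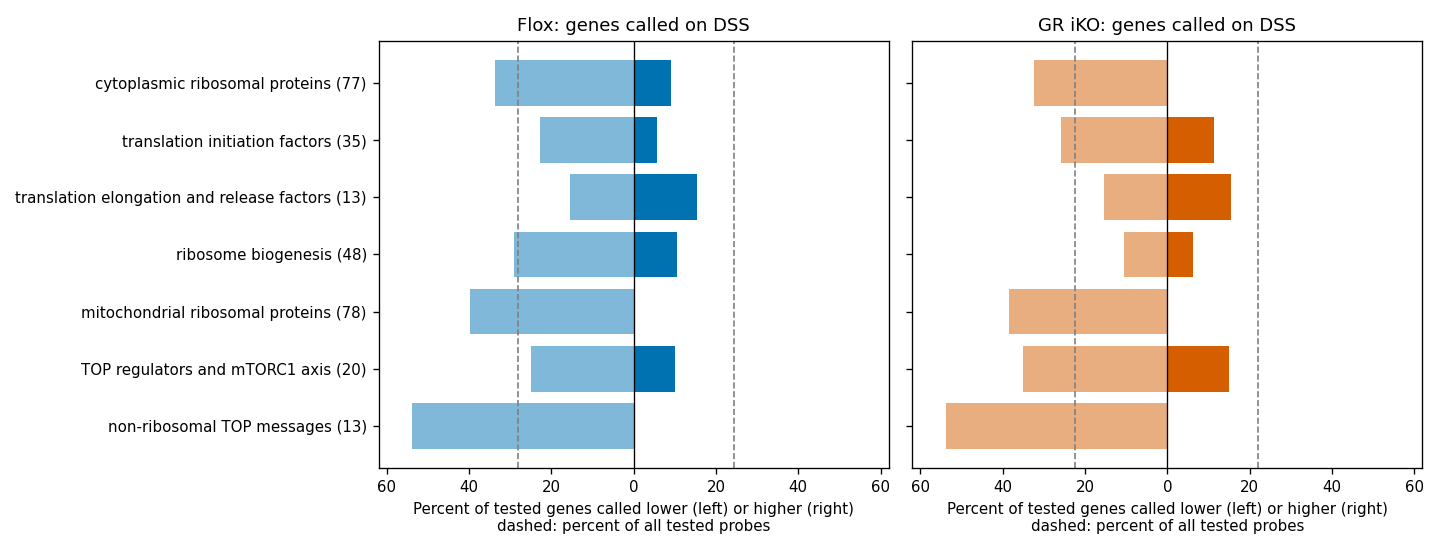
Percent of tested genes called lower (left of 0) or higher (right of 0) on DSS in Flox and GR iKO colon, for the cytoplasmic ribosomal proteins and 6 lists of related genes, with the number of tested genes in brackets. Dashed lines mark the percent of all tested probes called; no mitochondrial ribosomal protein and no other TOP message was called higher in either genotype.

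Markers of other cell types also moved with DSS in the same samples. On Flox DSS, the 7 tested neutrophil markers, the 7 fibroblast markers and the 6 smooth muscle markers were all called higher, and 5 of 6 crypt stem and progenitor markers and 7 of 8 cell cycle markers were called lower. In GR iKO, 7 neutrophil and 7 fibroblast markers were higher, 3 crypt and 1 cell cycle marker were lower, and no smooth muscle marker was called. The mean signal of the crypt list was between −0.35 and −0.04 on Flox water, −1.99 and −1.69 on Flox DSS, −0.35 and −0.10 on GR iKO water, and −2.05 and −1.63 on GR iKO DSS. That of the cell cycle list was −0.31 on GR iKO DSS replicate 3, the array with the lowest ribosomal protein median, and 1.56 and 1.60 on replicates 1 and 4. On Flox DSS it was 0.60, 0.27 and 0.58 on replicates 1, 2 and 4, whose ribosomal protein medians were −0.38, −0.42 and 0.10. That of the smooth muscle list was between 6.86 and 7.65 on Flox DSS, with the highest value on replicate 4, between 5.57 and 6.34 on Flox water, 5.52 and 6.33 on GR iKO water, and 5.19 and 6.45 on GR iKO DSS. B and plasma cell markers, which belong to secretory cells with many ribosomes, had 6 of 7 called lower in Flox and 2 of 7 in GR iKO, and their mean was between −2.99 and 0.17 on Flox DSS and between 0.81 and 1.53 on Flox water. In GR iKO that mean was between 0.81 and 1.28 on water and between −1.90 and 1.07 on DSS, with the highest value on replicate 3. Of 8 general epithelial markers, 3 were called lower and 1 higher in Flox, and 0 and 1 in GR iKO. Of 7 colonocyte markers, 1 was lower and 1 higher in Flox, and 2 and 1 in GR iKO. Of 7 goblet cell markers, 2 were lower in Flox and none was called in GR iKO. The mean of the goblet list was 5.52, 5.32 and 8.15 on Flox DSS replicates 1, 2 and 4 and 6.01, 8.21 and 6.79 on GR iKO DSS replicates 1, 3 and 4, so it was highest on the array with the highest ribosomal protein median in Flox and on that with the lowest in GR iKO. Of 8 macrophage markers, 6 were higher in Flox and 7 in GR iKO, and of 6 T cell markers 1 was lower in Flox. The part of these cells in the changes of the ribosomal protein genes was not tested.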

How the data were processed

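Colon RNA of 14 samples was hybridized to 1-colour Agilent arrays. The authors extracted spots with Feature Extraction 12.0.0.7, and the deposited scanner intensity is background-subtracted, not scaled between arrays. The deposited table of log2 values, whose making is not given in the sources used here (Partek 6.6 is named), was used as an alternative. It had equal quartiles on all arrays. Control and outlier spots were left out, spots of a probe averaged, and log2 intensity minus the array's 75th percentile tested in limma 3.58.1 (R 4.3.3) for 29523 probes well above background on at least 3 arrays. DSS comparisons and the interaction used all 14 arrays, and genotype comparisons used the arrays of their own treatment. The variance within DSS groups was a median 7.08 times that on water for the ribosomal protein genes and 3.12 times for all probes. A spread shared by all arrays can therefore understate the error of the DSS comparisons and the interaction. Separate weights for water and DSS gave 4 genes higher and 26 lower in Flox, and 0 and 25 in GR iKO. RefSeq accessions were matched to symbols for 28223 of 29245 probes, and the brightest probe stood for a gene. Probe positions were not used, as the grid is on mm9. The labels do not say that replicates were processed separately, so p-values measure the spread between these samples.

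Alternatives were normexp (offset 50, on the median spot signal), quantile, 95th percentile, spike-in and cyclic loess scaling, no filter, other probes of a gene, blocks, weights, other samples in the fit and each sample left out. Cyclic loess and the dimmest probe were chosen after seeing the data. Members and gene lists were chosen with earlier results of these data known. Named genes were the 5 largest called changes each way per DSS comparison, the 3 smallest adjusted p per genotype comparison, the stalk, 5S, paralogue and fusion members, Rpsa, Rps6, Rps19, the brightest and dimmest member, members with probes called in opposite directions, and 2 genes each way per list. Ribosomal proteins outside the name rule are not reported here. Same-numbered samples deviated together at r of −0.08 to 0.31, over 0.1 in 7 of 12 pairs, so the numbers were not taken as pairs. The script was tested on simulated data.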

Additional observations from a re-analysis of the deposited data

Results flagged for a closer look

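For the named genes and the family median, 46 groups of 4 water samples were examined for a single sample far from the others, of which chance would flag about 1 in 20, and 4 were flagged. Rplp1 was lowest on Flox water replicate 2, at 8.08 against 8.37 to 8.41 on the other arrays. Rplp1 was also lowest on GR iKO water replicate 1, at 8.12 against 8.50 to 8.57. Rps6 was highest on Flox water replicate 3, at 5.90, and Rpl3 was lowest on GR iKO water replicate 1, at 6.16. The DSS groups of 3 are too small for this test.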

How the results depend on the processing

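The calls on DSS depended on scaling and on single samples, and the causes were not tested. Spike-in scaling gave medians of −2.56 in Flox and −1.28 in GR iKO, with 77 and 76 genes lower and 0 higher, and medians of 1.15 for genotype on DSS and 1.26 for the interaction, with 59 genes higher. The medians of all probes under it were −2.43, −0.98, 1.25 and 1.42. It turned Rpl38 to −1.56 in Flox and −0.77 in GR iKO, Rplp0 to −1.70 and −0.74, Rplp1 to −1.52 and −0.74, and in Flox Rplp2 to −1.68, Rpl3l to −1.13, Rps27a to −2.19 and Rps27l to −2.33. Genes called higher in Flox numbered 2 with quantile normalization and with the deposited value table, 4 with separate weights for water and DSS, and 12 with cyclic loess, which called 2 in GR iKO. Genes called lower in Flox numbered 17 with slide as a block and 47 with array quality weights, and in GR iKO 14 with its own arrays alone in the fit. With all arrays in the fit, 1 gene, Rpl3l, was lower for genotype on DSS (adjusted p = 0.0142), against 6.78% of all probes lower and 6.44% higher. The dimmest probe gave 0.022 for Rpl5 and 0.45 for Rpsa in Flox, 0.13 for Rpsa in GR iKO, and −0.42 and −0.51 for Rplp0.

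Leaving out 1 sample at a time gave 3 to 7 higher and 10 to 30 lower in Flox. The lowest counts were 3 higher without Flox DSS replicate 4, 4 without Flox water replicate 2 or Flox DSS replicate 1, and 10, 11, 14 and 17 lower without Flox DSS replicate 1, Flox DSS replicate 2, Flox water replicate 3 and Flox water replicate 1. In GR iKO it gave 15 to 34 lower, with 15 without GR iKO DSS replicate 3 and 16 without GR iKO water replicate 3. The interaction had 0 to 1 lower, the 1 being Rpl3l without GR iKO DSS replicate 3. With the replicate block, 7 genes were higher and 21 lower in Flox, and 0 and 18 in GR iKO. Rpl4, Rps26, Rpl18, Rpl28, Rpl10a, Rpl3 and Rps19 kept direction and call in all 28 alternatives in both genotypes. Each of these genes has a single tested probe, so the alternatives on other probes of a gene could not change their estimates. Spike-in scaling called 77 genes lower in Flox and 76 in GR iKO, so a fall kept there does not set these genes apart. The number of arrays limits the precision of every value.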
